A study of Mus musculus with 2 samples.

Results

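The G2/M-phase genes described here are the 54 genes of the updated Seurat G2/M list in mouse spelling, chosen by name and not by their values, out of the 32285 genes listed in each library. All 54 were found in cultured adipocyte precursors from subcutaneous white (WAT) and interscapular brown (BAT) adipose tissue. Tissue came from neonatal mice of both sexes (strain C57/BL6J, age P0 in the labels, no further genotype named), and the stromal vascular fraction, the non-adipocyte cells of the tissue, was grown to confluency in 4 days, with no treatment named in the labels. Collagenase digestion took 35 min for WAT and 50 min for BAT. Each depot is 1 library from a pool of 4 pups, so depot, digestion time and library cannot be told apart, and no value below has a replicate or a p-value. Intervals at 95% (Poisson for levels, conditional binomial for ratios, Clopper-Pearson for shares, a normal approximation for a difference of shares) cover counting error only.

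A dividing cell copies its DNA in S phase, checks it in G2 and then enters mitosis (M), when cyclin B with the kinase Cdk1 drives chromosome condensation, breakdown of the nuclear envelope and spindle assembly. Kinetochores attach the chromosomes to the spindle, the anaphase-promoting complex then marks cyclin B and securin for destruction, and cytokinesis divides the cell. Many genes for these steps are transcribed late in the cycle, and their promoters often carry a CHR element (cell cycle genes homology region) and CCAAT boxes.

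The study's limits on cells kept 4407 white and 6137 brown cells. Without the glial, myeloid and myogenic clusters, 4331 white and 5958 brown precursor cells remained. They had medians of 26949 and 26413 UMIs (unique molecular identifiers, each standing for 1 captured transcript). The 5 precursor markers (Pdgfra, Pdgfrb, Dlk1, Dcn, Col1a1) were all found in them and summed to 6172 CPM (UMIs of a gene per 1000000 UMIs) in WAT and 5703 in BAT, and glial, myeloid, myogenic and endothelial markers summed to between 3.41 and 21.5 CPM per list. Mural (vessel wall) markers summed to 96.6 CPM in WAT and 85.4 in BAT, with 5 of 5 found. The 2 libraries shared 9 cell barcodes. Levels are UMIs of a gene summed over the cells of a group, divided by all UMIs of those cells. Since each transcript is tagged at its 3′ end, levels of different genes need no correction for length.

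Promoters are shown first because the members share letters there that the list did not use. Of the 54 members, 47 matched a RefSeq promoter (GRCm38.p6, 250 bases before to 50 after the start), with 52 promoters in all. The CHR letters TTTGAA or TTCGAA, read on both strands, stood in 38 of the 52 (73.1%), against 19.2% of all 32851 promoters and 13.5% of those of protein-coding genes with at least 10 CPM here. CCAAT on either strand stood in 39 (75%), against 37.4% of all promoters, and both motifs in 31 (59.6%), against 7.52%. In 29 of the 36 members with CHR letters, these lay within 50 bases of the start on either side. The same count was not made for all promoters with CHR letters, so it shows no preference for a position. S-phase genes held the CHR letters in 17.1% of their promoters and CCAAT in 65.7%, while the 38 matched genes of 47 further G2/M genes that are not on the list held CHR letters in 69.8%. A match of letters is a description and not a shown binding site.

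The 200 bases before the RefSeq start are given for the 3 members with the largest difference between cells high and low for mitosis genes (Hmmr, Cenpf, Kif2c) and for the 1 with the smallest (Ctcf), read 5′ to 3′ along the gene, with CHR and CCAAT letters of either strand in capitals.
Hmmr, chr11:40733438-40733637, minus strand: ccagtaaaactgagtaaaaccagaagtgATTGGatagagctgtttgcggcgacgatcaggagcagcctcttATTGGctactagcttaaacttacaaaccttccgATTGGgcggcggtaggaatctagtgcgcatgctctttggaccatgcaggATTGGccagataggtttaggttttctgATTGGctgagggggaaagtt
Cenpf, chr1:189688087-189688286, minus strand: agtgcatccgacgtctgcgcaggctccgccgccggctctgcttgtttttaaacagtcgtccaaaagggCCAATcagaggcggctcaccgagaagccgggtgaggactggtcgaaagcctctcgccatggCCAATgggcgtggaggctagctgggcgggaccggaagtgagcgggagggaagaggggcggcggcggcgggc
Kif2c, chr4:117178773-117178972, minus strand: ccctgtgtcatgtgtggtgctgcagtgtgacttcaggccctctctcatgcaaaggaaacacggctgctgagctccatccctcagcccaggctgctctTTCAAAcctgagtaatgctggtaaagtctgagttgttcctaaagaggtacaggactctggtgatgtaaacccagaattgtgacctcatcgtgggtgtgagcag
Ctcf, chr8:105636338-105636537, plus strand: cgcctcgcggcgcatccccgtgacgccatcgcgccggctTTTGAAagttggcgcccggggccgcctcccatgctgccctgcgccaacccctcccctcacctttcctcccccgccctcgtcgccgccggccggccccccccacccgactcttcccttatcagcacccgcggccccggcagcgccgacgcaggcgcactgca
Hmmr held 5 CCAAT matches in this stretch and Cenpf 2, and both also held a CHR match just after the start, outside the letters shown. Kif2c and Ctcf each held 1 CHR match and no CCAAT. The start that RefSeq gives for Kif2c lies inside the gene as GENCODE draws it (chromosome 4, 117159639 to 117182639). Over members, the log2 ratio of mitosis-high over low cells described below, as the mean of both depots, had a median of 5.57 in the 36 with CHR letters (1.02 to 8.72) and 5.13 in the 11 without (1.16 to 7.96).

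Ccnb2 and Top2a, which moved in opposite directions in one precursor cluster of each depot, were added after their values were seen.
Ccnb2, chr9:70421555-70421754, minus strand: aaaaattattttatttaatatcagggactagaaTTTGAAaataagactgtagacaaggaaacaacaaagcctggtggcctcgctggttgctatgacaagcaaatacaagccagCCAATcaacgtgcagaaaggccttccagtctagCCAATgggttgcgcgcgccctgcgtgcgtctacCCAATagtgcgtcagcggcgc
Top2a, chr11:99024190-99024389, minus strand: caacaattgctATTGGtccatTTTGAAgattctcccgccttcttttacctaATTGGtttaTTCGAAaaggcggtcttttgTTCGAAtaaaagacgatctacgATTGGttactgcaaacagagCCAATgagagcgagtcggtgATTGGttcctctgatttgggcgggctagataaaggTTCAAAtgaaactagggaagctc
In this stretch Ccnb2 held 3 CCAAT matches and 1 CHR match, with a further CHR match just after its start, outside the letters shown. Top2a held 5 CCAAT and 4 CHR matches here, the nearest CHR match 23 bases before the start.

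To see how far the members follow the cell cycle in these cultures, cells were placed without them. Mitosis-high cells were the top 10% of all precursor cells by the summed level of the 47 further G2/M genes, S-high cells those in the top 10% by 43 S-phase genes that were not mitosis-high, and low cells those at or below the pooled median of both. In WAT 470 of 4331 precursor cells were mitosis-high (10.9%, 9.94 to 11.8%), and in BAT 559 of 5958 (9.38%, 8.65 to 10.2%). The cut lay at 3511 CPM of the further G2/M genes, and 182 white and 195 brown cells lay within 10% of it, so the class is a range and not a cell type. Mitosis-high cells held more UMIs, with medians of 35581 in WAT and 34630 in BAT against 25084 and 24928 in low cells, and the part of depth in what follows was not tested beyond thinning each cell to 10000 UMIs.

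The members together stood at 892 CPM in white low cells, 4604 in S-high and 12127 in mitosis-high cells. In brown cells the same classes stood at 904, 4617 and 12291 CPM. The order was the same in both libraries and the levels lay within a few percent of each other. All 54 members were at least 1.5-fold higher in mitosis-high than in low cells in WAT and in BAT, where 9.77% and 10.1% of all tested genes were, and 0 were lower (4.52% and 4.24% of all tested genes). Further G2/M genes placed these cells, and the members are known to be transcribed with them, so the count describes how widely the list moved in these cultures. The median log2 ratio over members was 5.77 in WAT and 5.72 in BAT. Over single cells, the Spearman correlation of the members' summed level with that of the further G2/M genes was 0.80 in each depot, with the S-phase genes 0.66 and 0.69, and with UMIs per cell 0.25 and 0.19 (4331 and 5958 cells, sums of the same libraries and depths).

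**Figure D1:**
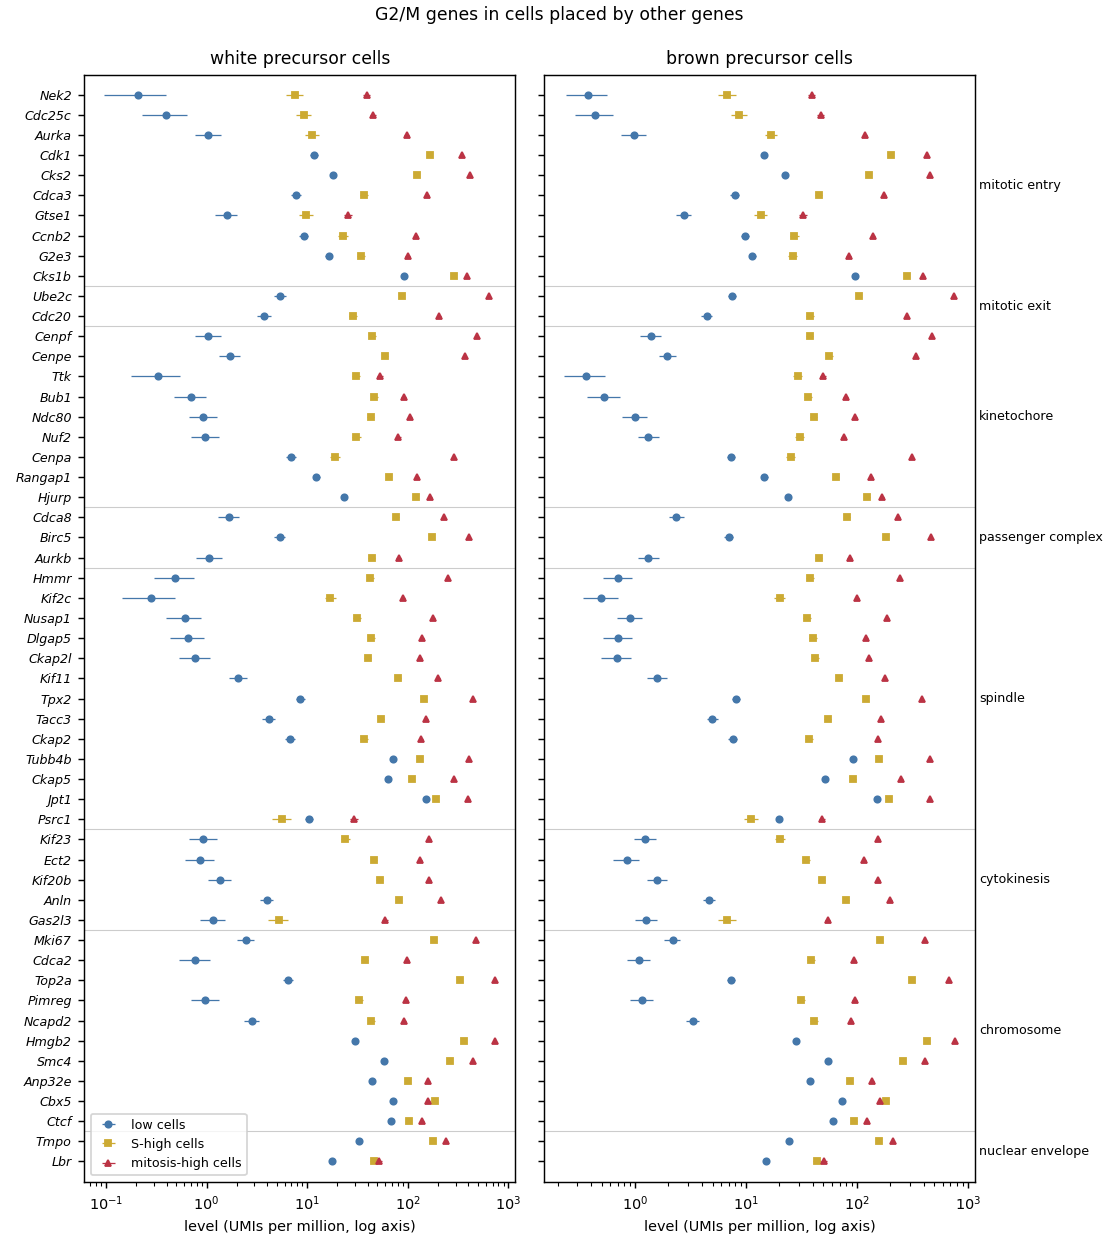
Level of each of the 54 G2/M genes (rows, by role) in low, S-high and mitosis-high precursor cells of WAT (left) and BAT (right), in CPM on a log axis with 95% Poisson intervals. Every gene lies further right in mitosis-high than in low cells, from about 2-fold for Ctcf at 68.4 and 138 CPM in WAT to the widest gap for Hmmr at 0.488 and 249.5 CPM.

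Genes of mitotic entry made up 10 members, with log2 ratios of mitosis-high over low cells from 2.10 to 7.54 in WAT. Nek2, a kinase of the centrosomes, stood at 0.209, 7.56 and 39.05 CPM in white low, S-high and mitosis-high cells and at 0.374, 6.81 and 39.4 in brown ones. Cdc25c, the phosphatase that activates Cdk1, rose over the same classes from 0.395 to 45.1 CPM in WAT and from 0.436 to 47.2 in BAT. At the other end stood Cks1b, a small subunit of cyclin-dependent kinases, which already reached 91.0 CPM in white low cells and 390.5 in mitosis-high cells, a log2 ratio of 2.10 (2.04 to 2.16). Its brown values were 96.0 and 399.9 CPM. Cks1b thus gave many UMIs in cells with few mitosis transcripts, unlike Nek2 and Cdc25c. The 2 genes of mitotic exit were both steep: Ube2c, the ubiquitin-conjugating enzyme of the anaphase-promoting complex, stood at 5.39, 87.5 and 641 CPM in WAT and at 7.52, 105 and 747 in BAT. Cdc20, the activator of that complex, stood at 3.72, 28.6 and 206 CPM in WAT and at 4.44, 38.0 and 282 in BAT.

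Among the 9 kinetochore genes, Cenpf and Cenpe differed most. Cenpf, which coats the outer kinetochore, stood at 1.05, 44.4 and 493 CPM in white low, S-high and mitosis-high cells and at 1.39, 37.6 and 481 in brown ones, log2 ratios of 8.88 (8.46 to 9.34) and 8.44 (8.14 to 8.76) between the last and the first. Cenpe, a kinesin that moves chromosomes to the spindle equator, went from 1.697 to 373 CPM in WAT and from 1.96 to 341 in BAT. Hjurp, the chaperone that loads the centromere histone Cenpa, had the smallest ratio, with 23.4 and 167 CPM in WAT and 23.9 and 169.97 in BAT. The centromere histone and its chaperone were not alike in S-high cells. Cenpa stood at 19.1 CPM there and 287 in mitosis-high cells of WAT, whereas Hjurp already stood at 121. The 3 members of the chromosomal passenger complex, which corrects faulty attachments, had log2 ratios between 6.25 and 7.09 in WAT and between 6.03 and 6.65 in BAT, with Cdca8 first, Birc5 next and the kinase Aurkb last.

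The 13 spindle genes held the widest range. Hmmr, which binds microtubules at spindle poles (ENSMUSG00000020330, chromosome 11, 40701395 to 40733422), stood at 0.488, 42.6 and 249.5 CPM in white low, S-high and mitosis-high cells and at 0.700, 38.0 and 245 in brown ones. These give log2 ratios of 9.00 (8.38 to 9.69) and 8.45 (8.03 to 8.91) of mitosis-high over low cells. After each cell was thinned to 10000 UMIs, 0.560% of white low cells and 84.5% of mitosis-high cells held a UMI of Hmmr, against 1.31% and 99.1% before thinning, and in BAT 0.727% and 87.7%. Kif2c, a kinesin that takes microtubules apart, went from 0.279 to 89.6 CPM in WAT and from 0.498 to 101 in BAT. Psrc1, a microtubule-binding protein (chromosome 3, 108383839 to 108388231), had the smallest mean ratio of the group and an order of its own: 10.5 CPM in white low cells, 5.62 in S-high and 29.4 in mitosis-high cells, and 19.7, 11.2 and 48.5 in BAT. Its S-high level lay below its low level, with log2 ratios of -0.90 (-1.26 to -0.56) and -0.82 (-1.05 to -0.59). No other member did so. By the 1.5-fold rule, 47 of 50 members with at least 10 CPM in either class were higher in S-high than in low cells in WAT (11.0% of all tested genes) and 49 of 51 in BAT (10.6%), and Psrc1 was the 1 lower in each (5.98% and 4.59%).

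Cytokinesis genes numbered 5. Kif23, a kinesin of the central spindle, went from 0.930 to 163 CPM in WAT and from 1.23 to 156 in BAT, and Ect2, which activates the contractile ring, from 0.860 to 133 and from 0.840 to 116. Gas2l3, a linker of actin and microtubules, was the flattest of them at 1.16 and 59.3 CPM in WAT and 1.26 and 54.5 in BAT. Of the 10 chromosome genes, Mki67, which coats mitotic chromosomes and is the usual marker of dividing cells, went from 2.46 to 482 CPM in WAT and from 2.18 to 409 in BAT. Cdca2, a phosphatase subunit of anaphase chromatin, went from 0.767 to 98.9 and from 1.09 to 94.8. Ctcf, which organises chromatin loops in cells of any phase, had the smallest ratio of all members, with 68.4 and 138 CPM in WAT and 60.9 and 125 in BAT (log2 1.02 and 1.03). Cbx5, a heterochromatin protein, was the only member whose S-high level exceeded its mitosis-high level, at 186 against 160 CPM in WAT and 182 against 164 in BAT. Of the 2 nuclear envelope genes, Tmpo went from 33.2 to 243 CPM in WAT and from 24.3 to 210 in BAT, and Lbr, the lamin B receptor, from 17.8 to 52.4 and from 15.2 to 50.8. The list therefore holds genes near 1 CPM in low cells beside genes that stay above 60 CPM there, which the plot of the 3 classes shows by role.

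The gap between S-high and mitosis-high cells separated members further. The log2 ratio of S-high over mitosis-high cells was lowest for Cenpa in WAT (-3.91, and -3.63 in BAT) and for Cenpf in BAT (-3.68, and -3.47 in WAT). Gas2l3 (-3.51 and -3.00) also lay low, as did Aurka (-3.12 and -2.81), the kinase of the spindle poles. Lbr (-0.19 and -0.21), Cks1b (-0.43 and -0.48), Ctcf (-0.43 and -0.40), Tmpo (-0.46 and -0.42) and Hjurp (-0.46 and -0.44) stood close to their mitosis-high level. The order of members was alike in both libraries for mitosis-high over low cells, with a Spearman correlation of 0.98 over the 54 genes.

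Lists without members give the setting. Of the 47 further G2/M genes, 46 were at least 1.5-fold higher in mitosis-high than in low cells in each depot. These genes placed the cells, so this count was largely fixed in advance. Of all tested genes, 9.77% in WAT and 10.1% in BAT were higher by this fold, and 4.52% and 4.24% were lower. Among the further G2/M genes with the highest level, Smc2 (condensin) went from 12.3 to 366 CPM in WAT, Prc1 (central spindle) from 4.42 to 439 and Bub3 (checkpoint) from 53.9 to 199.6. Of the 36 S-phase genes tested, 33 were higher by this fold in each depot, and the S-phase list also helped to place the low and S-high cells. Nasp, Rrm1 and Pcna stood at 257, 214 and 254 CPM in white S-high cells against 138, 170.0 and 84.7 in mitosis-high cells. Of 11 regulators of G2/M transcription tested in WAT and 10 in BAT, 6 were higher in each depot. The sets differed by 1 gene, Mybl2 in WAT (not tested in BAT) and Lin52 in BAT. Of the 3 regulators with the highest level, Tfdp1 passed in both depots, at 49.1 CPM in white low and 75.7 in mitosis-high cells and at 43.8 and 71.9 in brown ones. Rbbp4 (104 and 136 CPM in WAT) and E2f4 (21.2 and 24.3) did not pass 1.5-fold. Foxm1, a transcription factor of G2/M genes, which was chosen after its values were seen, went from 1.63 to 46.7 CPM in WAT and from 2.09 to 46.3 in BAT. Of 7 G1 cyclins and kinases, 1 was higher in each depot and 1 lower, which was Cdk6 in WAT and Ccnd2 in BAT. The highest, Ccnd2, Cdk4 and Ccnd3, stood at 374, 274 and 58.9 CPM in white low cells and 282, 336 and 50.9 in mitosis-high cells. Of 7 inhibitors of cyclin-dependent kinases, 3 were higher in each depot, 2 were lower in WAT and 1 in BAT, and the highest, Cdkn1c, Cdkn1a and Cdkn2b, stood at 287, 150.0 and 43.5 CPM in white low cells and at 178, 88.8 and 37.8 in mitosis-high cells.

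Between depots, the members differed little. Their summed level was 3445 CPM (3435 to 3456) in white and 3291 (3282 to 3299) in brown precursor cells, a log2 ratio of 0.07 (0.06 to 0.07), and 0.02 when the profiles were scaled by the median of gene ratios. Of the 52 members with at least 10 CPM in either depot, 0 were at least 1.5-fold higher in white cells, against 3.29% of all tested genes, and 1 was lower, Psrc1, against 1.86%. The other 2 members, Gtse1 and Nek2, lay below 10 CPM in both. Of 54 members, 30 had a counting interval above 0 and 13 one below, but the same shares over all genes were not computed. On balance 37 of 54 members lay above 0, a share not computed for all genes. The members' median log2 ratio of 0.09 stood beside 0.04 over all genes tested. The share of mitosis-high cells differed in the same direction, by 1.47 percentage points (0.28 to 2.66), and by 0.69 (-0.18 to 1.55) with the top 5% in place of the top 10%. Both intervals count cells of 1 library per depot and hold no spread between cultures. Within mitosis-high cells alone the members summed to 12127 CPM in WAT and 12291 in BAT, a log2 ratio of -0.02 (-0.03 to -0.01), so the direction of the sum turned.

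Of the 5 members with the highest level, Jpt1, Hmgb2 and Cks1b differed little between depots. Jpt1, a microtubule-associated protein, stood at 208 CPM in white and 213 in brown precursor cells. Hmgb2, a DNA-bending protein, stood at 199 and 197, and Cks1b at 189 and 188. Tubb4b, a beta-tubulin, stood at 151 and 175 CPM, and Top2a, the topoisomerase that untangles sister chromatids, at 162 and 136. Tubb4b was thus higher in BAT and Top2a higher in WAT.

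Psrc1 stood at 11.1 CPM (10.5 to 11.7) in white and 21.1 (20.4 to 21.8) in brown precursor cells, a log2 ratio of -0.93 (-1.02 to -0.84). In low cells the ratio was -0.91 and in mitosis-high cells -0.72, so it was lower in WAT in each of these classes. By cluster, white levels ran from 7.34 CPM in wAPC 2 to 14.2 in wCAPs, and brown ones from 16.7 in bFAPLs to 37.8 in bCAPs. The value of the highest white cluster thus lay below that of the lowest brown one. Their counting intervals were not compared, and the 15 differentiating wFAPLs were left out of the white range.

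By role, the ratio of white over brown cells lay above 0 for 10 of 10 chromosome, 5 of 5 cytokinesis, 2 of 2 envelope, 7 of 9 kinetochore, 2 of 3 passenger, 7 of 13 spindle and 4 of 10 entry genes and for 0 of 2 genes of mitotic exit. These counts were not tested, the share of all tested genes above 0 was not computed, and the median of all tested genes also lay above 0. Median-of-ratios scaling lowers every ratio by the same amount, that of the sum from 0.07 to 0.02. Signs were not counted under that scaling, so counts that rest on ratios near 0 may not hold. After Psrc1, Cdc20 had one of the largest differences toward BAT, at 48.0 against 59.5 CPM (log2 -0.31) and -0.45 within mitosis-high cells. Toward WAT the largest was G2e3, a ubiquitin ligase, at 31.0 against 22.5 CPM (log2 0.46), followed by Ect2, Mki67 and Tmpo at 0.36, 0.35 and 0.35. In mitosis-high cells these 4 fell to between 0.19 and 0.24. No member other than Psrc1 passed 1.5-fold there, where 3.42% of all genes were higher and 2.07% lower.

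**Figure D2:**
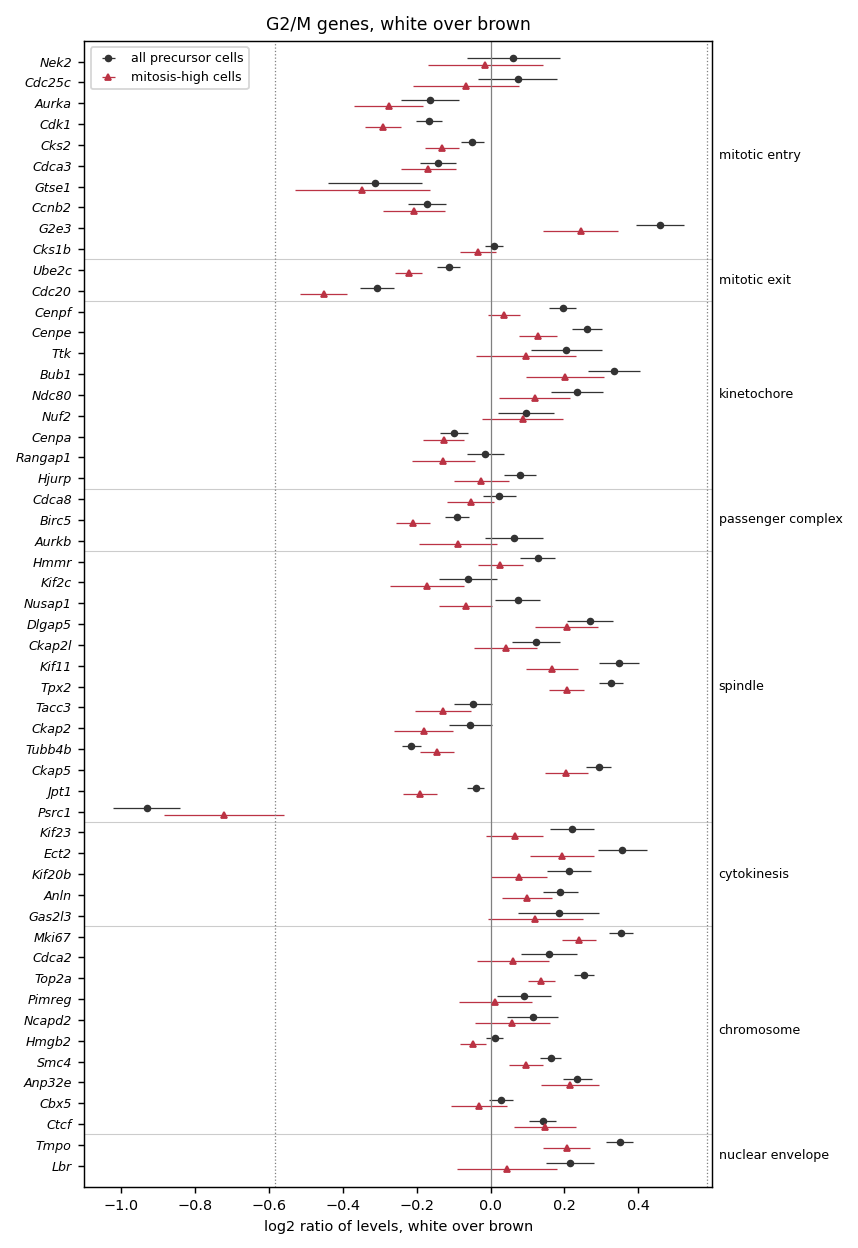
Log2 ratio of the level of each G2/M gene in white over brown cells, with 95% intervals for counting error, in all precursor cells (circles) and in mitosis-high cells (triangles); dotted lines mark 1.5-fold. Psrc1 is the only gene past a dotted line, at -0.93 and -0.72, and the others lie between -0.45 and 0.46.

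The authors' clusters were compared next, using the labels in the study's source data. The copy used here is shortened and holds the first 1999 cells of each depot in file order, so the other precursor cells have no label of the authors. APC clusters are early precursors, CAPs committed adipogenic precursors and FAPLs fibro-adipogenic progenitor-like cells. The clusters were made from these counts after cell cycle scores had been regressed, so their differences are descriptions and test nothing. The members' summed level was highest in wAPC 3 among the white clusters, at 4235 CPM, and in bAPC 3 among the brown ones, at 4368. The lowest were wAPC 4 at 2366 and bAPC 4 at 2559 CPM, and the remaining clusters ran from 2899.5 in wAPC 2 to 3532 in wAPC 1 and from 2915 in bAPC 2 to 3724 in bCAPs. Single members followed this order in part: 33 of 54 were highest in wAPC 3 and 29 in bAPC 3, while 36 were lowest in wAPC 4 and 25 in bAPC 4 (6 white clusters with the 15 differentiating wFAPLs left out, and 7 brown ones). The same counts over all genes were not made, so these describe the members only. The wAPC 4 cluster held 62 labelled cells, the fewest of the 6 white clusters, and bAPC 4 held 142. The part of cell number in these counts was not tested.

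**Figure D3:**
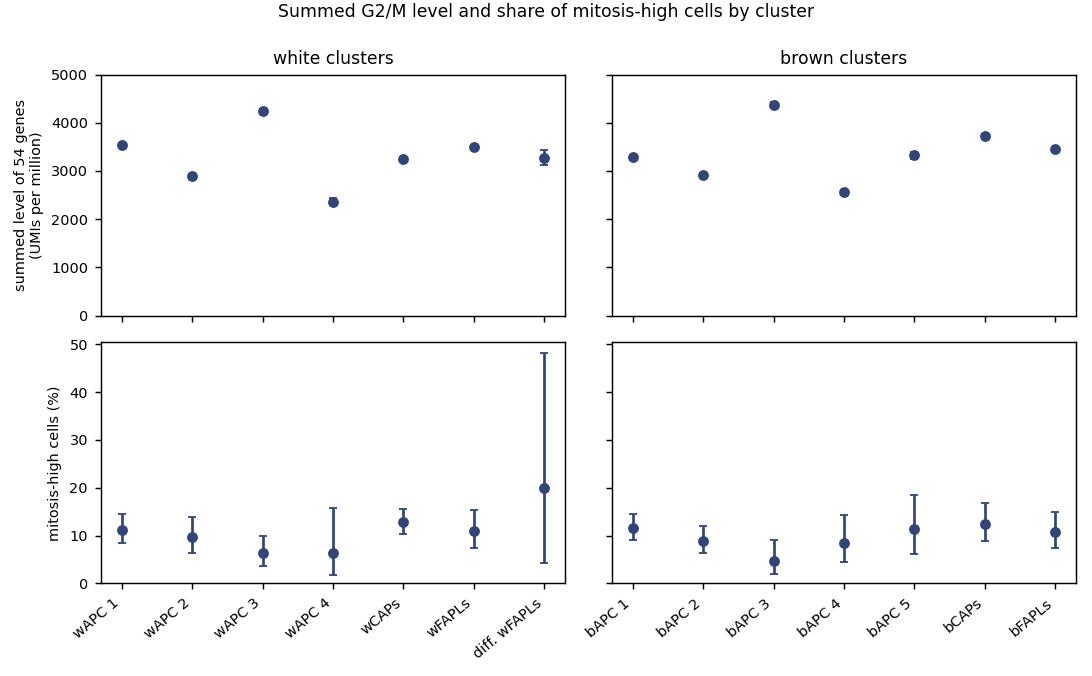
Summed level of the 54 G2/M genes (top, CPM, 95% Poisson intervals, mostly smaller than the points) and share of mitosis-high cells (bottom, percent, 95% Clopper-Pearson intervals) in the authors' white (left) and brown (right) clusters. wAPC 3 and bAPC 3 have the highest summed levels, at 4235 and 4368, with 6.30% and 4.68% of their cells mitosis-high.

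Despite this, wAPC 3 had the lowest share of mitosis-high cells of the white clusters, 17 of 270 (6.30%, 3.71 to 9.89%), and bAPC 3 the lowest of the brown ones, 8 of 171 (4.68%, 2.04 to 9.01%). Among the other labelled cells the shares were 11.5% in WAT and 10.7% in BAT. The wAPC 4 share was 6.45% (1.79 to 15.7%). The intervals of wAPC 3 and bAPC 3 overlapped those of the other clusters of their library, except wCAPs and bAPC 1. Low cells were also few, at 17.4% of wAPC 3 and 3.51% of bAPC 3, against 41.4% and 43.2% of the other labelled cells. The further G2/M genes summed to 1296 CPM in wAPC 3 against 1241, and to 1374 in bAPC 3 against 1179. The median cell held 3287 CPM of the members in wAPC 3 and 3565 in bAPC 3, against 1053 and 1088 in the other labelled cells. Their cells were shallower, with medians of 23338.5 and 23668 UMIs against 27891 and 27262.5, and the part of depth was not tested. The log2 ratio of the summed level was 0.37 (0.35 to 0.39) in wAPC 3 and 0.43 (0.41 to 0.45) in bAPC 3. In bAPC 3 it was 0.60 with labels carried over to all precursor cells, and the members' own counts helped to place those labels.

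Within these clusters the members parted into a set that was higher and a set that was lower, and the same genes did so in both libraries. In wAPC 3, 18 of the 52 members at 10 CPM were at least 1.5-fold higher than in the other labelled white cells and 9 were lower, where 1.04% and 5.69% of all tested genes were. In bAPC 3 it was 21 of 51 higher and 9 lower, against 1.84% and 5.22%. The higher members in both were 17 (Cenpa, Ccnb2, Cdca3, Cdc20, Birc5, Tacc3, Cks2, Cdc25c, Hmmr, Tpx2, Bub1, Cdca8, Kif23, Tubb4b, Anp32e, Rangap1 and Cenpe), and the lower ones in both were 8 (Nusap1, Aurkb, Top2a, Cdca2, Hjurp, G2e3, Cdk1 and Kif11). The sign was the same in both libraries for 48 of 54 members, and the ratios had a Spearman correlation of 0.96 over the 54 genes. The study itself describes these clusters by Cdca3, and by Kif20a of the further G2/M genes. The clusters were made from these same counts, so no member is independent evidence, and the members other than Cdca3 are named after their values were seen.

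Cenpa stood at 199 CPM in wAPC 3 against 57.8 in the other white cells and at 243 in bAPC 3 against 63.8, log2 ratios of 1.79 (1.69 to 1.88) and 1.93 (1.83 to 2.03). Ccnb2, a B-type cyclin, stood at 112 against 32.7 and at 129 against 40.001 CPM, and Cdc20 at 107 against 39.5 and at 130 against 53.8. For these 3 genes the level was above that of every other labelled cluster of its library. Top2a went the other way, at 48.3 CPM in wAPC 3 against 172 and at 38.8 in bAPC 3 against 153, log2 ratios of -1.83 (-2.00 to -1.67) and -1.98 (-2.21 to -1.76). The kinase Aurkb stood at 5.69 against 20.2 CPM and at 4.79 against 20.1. Cdk1 stood at 45.4 against 89.0 and at 55.7 against 103 CPM, while its partner Ccnb2 was higher. A complex could thus divide between the sets, as Aurkb was lower and its partners Birc5 (0.99 and 1.14) and Cdca8 (0.84 and 0.92) higher, and likewise Hjurp was lower (-0.97 and -0.94) and Cenpa higher. Mki67 was less affected, at 138 against 107 CPM in WAT and 116 against 85.6 in BAT, log2 0.37 and 0.44.

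**Figure D4:**
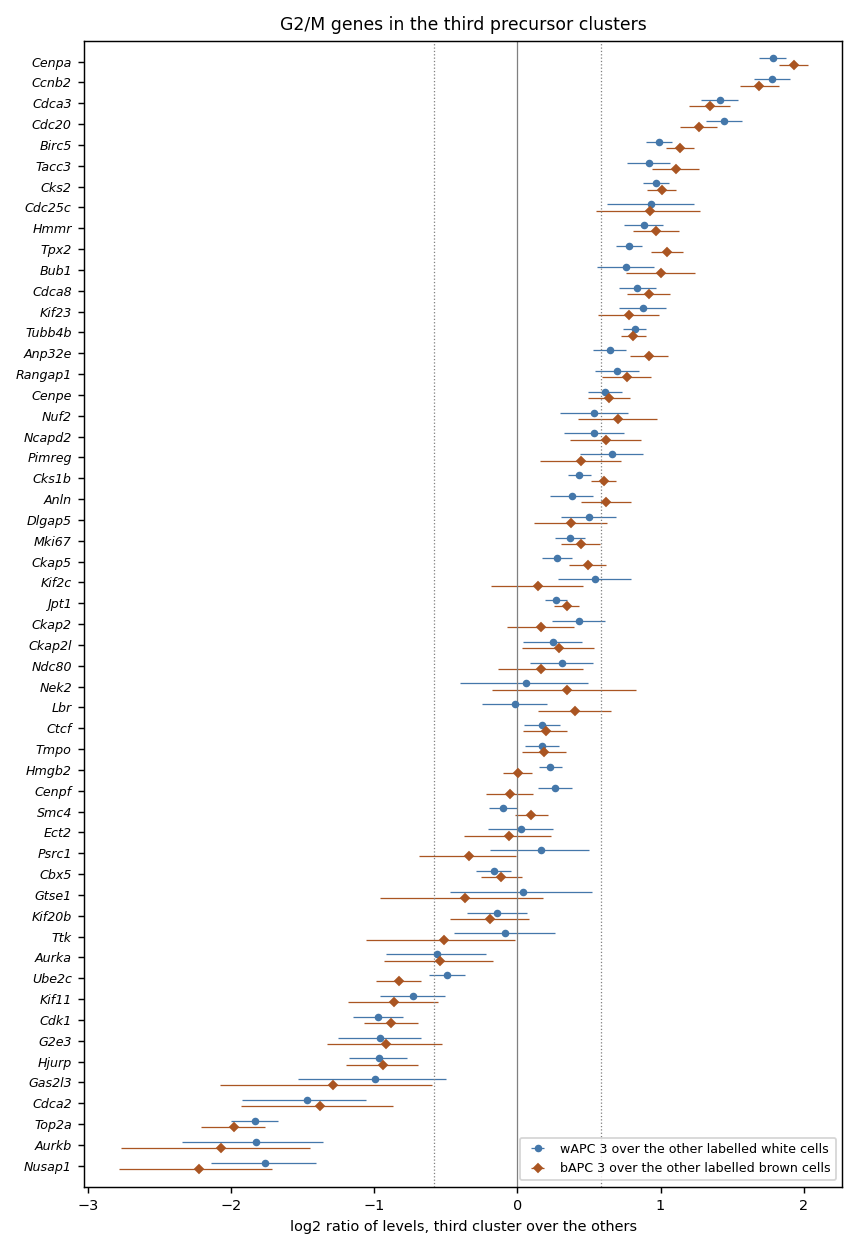
Log2 ratio of the level of each G2/M gene in the third precursor cluster over the other labelled cells of its library, with 95% intervals for counting error (circles WAT, diamonds BAT); dotted lines mark 1.5-fold. Cenpa leads at 1.79 and 1.93, and Nusap1, Aurkb and Top2a lie lowest, between -1.76 and -2.22, in both libraries.

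The further G2/M genes parted as well, with 7 higher and 14 lower of 42 in wAPC 3 and 9 higher and 12 lower of 42 in bAPC 3. Prc1 stood at 29.8 against 86.7 CPM in WAT and 24.0 against 79.3 in BAT, Bub3 at 61.8 against 88.3 and 68.2 against 96.7, and Smc2 at 112 against 107 and 118 against 94.6. By the 1.5-fold rule, 0 of 35 S-phase genes were higher than in the other cells in wAPC 3 and 0 of 33 in bAPC 3. By the same rule 7 and 5 were lower, against 5.69% and 5.22% of all tested genes. By sign alone, 5 and 11 of the 43 S-phase genes lay above 0. Because few cells of the third clusters were mitosis-high, members were also compared within 1 tier, cells between the 75th and 90th percentile of the further G2/M genes (1402 to 3511 CPM), a choice made after the values were seen. It held 81 wAPC 3 and 189 other white cells, and 58 bAPC 3 and 225 other brown cells. In this tier 16 members were higher and 9 lower in wAPC 3 (6.65% and 10.9% of all tested genes), and 13 were higher and 11 lower in bAPC 3 (5.17% and 10.6%). Cenpa stood at 314 against 63.7 CPM in WAT and 308 against 91.5 in BAT, and Top2a at 91.3 against 423 and 61.3 against 382. S-phase genes summed to 1466 CPM in the wAPC 3 cells of the tier against 3664 in the others, and to 1553 against 3346 in BAT, and median depths were 23627 against 34611 and 23557 against 32571 UMIs. The part of either in the parting of the members was not tested.

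For the contrast of CAPs and FAPLs, the members gave small differences of opposite sign. They summed to 3249 CPM in wCAPs and 3496 in wFAPLs, a log2 ratio of -0.11 (-0.13 to -0.08), and to 3724 in bCAPs and 3464 in bFAPLs, a ratio of 0.10 (0.08 to 0.13). The white difference turned to 0.02 with labels carried over to all precursor cells. In each depot 1 member was at least 1.5-fold higher in CAPs and 0 were lower, where 4.23% and 4.48% of all tested genes were in WAT and 5.56% and 4.34% in BAT. It was Psrc1 both times, at 14.2 against 8.79 CPM in WAT (log2 0.70, 0.30 to 1.11) and 37.8 against 16.7 in BAT (1.18, 0.87 to 1.49). The summed level of the 7 inhibitors of cyclin-dependent kinases was higher in CAPs in both depots, with log2 ratios of 0.69 and 0.61, although single genes lay above 0 for 4 of 7 in WAT and 5 of 7 in BAT (lowest -0.18 and -0.31). Between depots, 4 members were lower in wCAPs than in bCAPs (Psrc1, Cdc20, Ccnb2 and Birc5, log2 -1.41 to -0.61) and 0 were higher, against 5.63% and 7.11% of all tested genes. Between wFAPLs and bFAPLs only Psrc1 passed, at -0.93, against 2.15% of all tested genes that were lower, and 0 were higher (4.00%).

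Outside the precursors, the members were higher in glial cells, at 6750 CPM in 47 white and 7178 in 68 brown cells, and in myeloid cells, at 4630 in 29 and 5861 in 78 cells. The 33 myogenic cells of BAT stood at 2896 CPM, below the brown precursors, although their median cell held 2080 CPM against 1161. By the same cut, 23.4% (12.3 to 38.0%) of white and 29.4% (19.0 to 41.7%) of brown glial cells were mitosis-high, and 1 of 33 myogenic cells (3.03%, 0.0767 to 15.8%). Mki67 stood at 293 and 239 CPM in glial, 356 and 382 in myeloid and 40.5 in myogenic cells, against 113 and 88.3 in precursors. These glial cells were shallower than the precursors, with medians of 20672 and 19494.5 UMIs. Among precursors, the members' level moved with depth: with cells split by UMIs into 5 equal groups, the summed level was, from the shallowest to the deepest, 2525, 2207, 2089, 3333 and 5479 CPM in WAT and 2449, 2042, 2363, 3919 and 4402 in BAT, and its part in the values above was not tested.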

How the data were processed

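Single-cell RNA-seq (10x Chromium 3′ v3.1) was done on 1 library of cultured white and 1 of cultured brown precursors. The authors made UMI counts per gene and cell with Cell Ranger 7.0.1 against mm10 (submitters' processing notes) and deposited them unnormalized. Cells with over 3900 and under 7700 genes (counting genes found in at least 3 cells), 6000 to 60000 UMIs and 1.7 to 5% mitochondrial UMIs were kept. Clusters rebuilt with Seurat 5.3.0 in R 4.3.3 (2000 variable genes, 10 components, resolution 0.5) were named glial, myeloid or myogenic from 3 or more markers at 50 CPM and over 2 times the other clusters, and left out of the precursors. No doublet caller was used. Authors' labels were carried over by 15 nearest labelled neighbours in an alternative. The neighbours were found in components made after cycle scores of the members and S-phase genes were regressed. Members were not taken out of the variable genes, so their counts helped to place the carried-over labels. Held-out cells got their own label back in 91.6% of white and 88.1% of brown cells. UMIs were summed per group in Python 3.11.15 (numpy 2.4.6, scipy 1.17.1, pandas 2.3.3, scikit-learn 1.9.0). A gene was tested with at least 10 CPM in either group, and called past 1.5-fold. Members and lists were chosen with earlier results of these data known. Named genes were, per role, the 2 with the largest and the 1 with the smallest mean ratio of mitosis-high over low cells, those past 1.5-fold between depots, the 5 with the highest level, members higher in S-high than mitosis-high cells, and the 3 highest of each further list. Other names were chosen after their values were seen. Ratios, intervals and thinning were run on simulated counts, drawn independently by the Poisson model that the intervals assume. This checked the code and cannot show how well the intervals hold for these cells. Alternatives were other cell limits, scalings, cuts, labels and thinning.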

Additional observations from a re-analysis of the deposited data

Results flagged for a closer look

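Cells above the upper limits on genes or UMIs, which entered only the alternatives without those limits, held more of the G2/M genes than the kept precursors. The summed level was 5667 CPM in 236 white cells and 4916 CPM in 408 brown cells, against 3445 and 3291. By the same cut 27.5% and 19.9% of them were mitosis-high. They held medians of 59874.5 and 61948 UMIs, and the part of depth or of 2 cells in 1 droplet was not tested.

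The ratio of CAPs over FAPLs had opposite signs in the 2 depots for the summed level of the members, at -0.11 in WAT and 0.10 in BAT on the log2 scale. Of 54 members, 2 had counting intervals on opposite sides of 0. Birc5 stood at -0.26 in WAT and 0.22 in BAT, and Cdk1 at -0.37 and 0.19. With 1 library per depot the difference between depots was not tested.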

How the results depend on the processing

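With 1 library per depot no sample could be left out, and values rest on counting depth alone. No paired analysis was possible because each depot has 1 library. The white over brown log2 ratio of 0.07 was 0.0558 over all captured cells, 0.0412 as a mean over cells, 0.0234 with median-of-ratios scaling, 0.0286 in labelled cells, 0.0734 without Jpt1 and turned to -0.0193 in mitosis-high cells. At a fold of 2, 0 members were lower in WAT. With carried-over labels and as a mean over cells, the ratio was 0.40 and 0.56 for wAPC 3, 0.60 and 0.61 for bAPC 3, 0.0202 (turned) and -0.14 for wCAPs over wFAPLs, and 0.13 and 0.21 for bCAPs over bFAPLs. The median ratio of mitosis-high over low cells was 6.14 for the top 5% and 5.43 for the top 20% in WAT, and 5.40 for the top 20% and 5.44 after thinning in BAT. Within the tier, chosen after seeing the data, 13 members were higher in bAPC 3. The causes were not tested.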
